A study of Mus musculus with 10 samples.

Results

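The circadian clock genes examined here are Per1, Per2, Per3, Dbp, Nr1d1, Ciart, Arntl, Npas2, Clock and Cry1, taken by their gene names from the deposited table. All 10 were found among its 52636 genes, and all 10 passed the low-count filter with 18455 genes in all. The RNA came from S1BF, the part of the mouse somatosensory cortex that maps the whiskers, of C57BL/6 mice aged 17 days. The cKO group (n = 4) carried Nex-cre with the loxP allele Rxratm1Krc/J of Rxra, the gene of retinoid X receptor alpha. The Hetero group (n = 2) carried Nex-cre with the same allele and is labelled cKO-Het. The Loxp group (n = 4) carried the loxP allele, and no Cre is named for it, so all 3 groups shared the loxP allele and the first 2 the Cre. Nex-cre sits in the Neurod6 gene and drives Cre in excitatory neurons of the forebrain, so Rxra in interneurons, glia and vessel cells of the tissue was outside its reach. The labels give neither the hour at which tissue was taken nor whether the libraries of a group are separate animals, and p-values therefore describe only how these samples vary.

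The mammalian clock is a loop of transcription and translation found in most cells of the body, the cortex included. CLOCK, or its relative NPAS2, pairs with BMAL1, the protein of Arntl, and binds E-boxes in the promoters of the Per, Cry, Dbp, Nr1d1 and Ciart genes. PER and CRY proteins then block their own activators, and REV-ERB alpha, the protein of Nr1d1, represses Arntl, so that in a cycling tissue the Per, Dbp and Nr1d1 transcripts peak at another time of day than Arntl. Per1 is in addition an immediate early gene, induced by neuronal activity and by glucocorticoids. The genes were read in 2 arms, one with Per1, Per2, Per3, Dbp, Nr1d1 and Ciart, the other with Arntl, Npas2, Clock and Cry1.

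Library totals were 23133301 to 25997122 counts in cKO, 19332990 to 22198491 in Hetero and 20485199 to 26086337 in Loxp. Slc17a7, the vesicular glutamate transporter of cortical excitatory neurons, was at 2125 to 2612 CPM (counts relative to the library total, scaled by TMM) in the 10 libraries. Of the 5 markers of the suprachiasmatic nucleus, the master clock of the hypothalamus, Nms and Six6 had 0 counts in every library, Lhx1 was at 0 to 0.135 CPM and Avp at 0.0393 to 0.817 CPM, while Vip, which cortical interneurons also express, was at 28.0 to 36.3 CPM. Rxra was at 29.0, 32.3, 29.3 and 32.0 CPM in cKO, 23.2 and 26.4 CPM in Hetero, and 24.5, 21.6, 28.3 and 31.8 CPM in Loxp, with a log2 fold change of 0.21 (SE 0.112) in cKO against Loxp; these counts cover the whole gene and other cell types, and do not check the deletion. Neurod6, the locus that carries Cre, was at 32.9, 22.9, 38.1 and 24.0 CPM in cKO, 34.4 and 34.0 CPM in Hetero, and 66.7, 55.7, 61.9 and 34.9 CPM in Loxp, where the value of Loxp 4 was within the range of the Cre carriers. Some libraries stood apart in cell type markers. The libraries cKO 2 and Loxp 2 had summed marker levels of 209 and 219 CPM for 5 striatal neuron genes, against 392 to 841 CPM in the others, and Hetero 2 had 733 CPM of 6 choroid plexus genes, against 2.87 to 22.2 CPM.

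Per2 had no promoter window and was not searched. Promoter sequences of the other 9 genes were matched in 13 windows, from 250 bases before to 50 bases after an annotated RefSeq start (GRCm38.p6). They are shown for the genes that carried the main contrasts between members. E-boxes are where CLOCK and BMAL1 bind, and AGGTCA is a half-site, the core of the longer element that ROR and REV-ERB proteins bind. Only its 6 letters were searched, and they are not particular to these proteins. On either strand, the E-box CACGTG occurred in 3 of the 13 windows, those of Ciart, Per1 and Cry1, against 7.15% of 32851 windows of all genes. The Ciart window (chr3:95882179-95882478, minus strand) held 3 E-boxes, with first bases at −116, −58 and −44 from the start, and 0.0883% of all windows held 3 or more. The Per1 window (chr11:69098699-69098998, plus strand) held 1 E-box at −166 and 1 AGGTCA on the opposite strand at −137. The Cry1 window (chr10:85185005-85185304, minus strand) held 1 E-box at −60. One of the Arntl windows (chr7:113207261-113207560, plus strand) held AGGTCA at 32 bases after the start; in all, AGGTCA occurred in 3 of the 13 windows, against 16.3% of all windows. The core TGACG of the cAMP response element, through which activity induces Per1, occurred in 3 of the 13 windows, 2 of them of Per1, against 20.8% of all windows. No matches overlapped, and a match is a description of letters only. The sequences are given 5′ to 3′ on the strand of the gene, with the E-box and the AGGTCA element, on either strand, in capitals.
Ciart: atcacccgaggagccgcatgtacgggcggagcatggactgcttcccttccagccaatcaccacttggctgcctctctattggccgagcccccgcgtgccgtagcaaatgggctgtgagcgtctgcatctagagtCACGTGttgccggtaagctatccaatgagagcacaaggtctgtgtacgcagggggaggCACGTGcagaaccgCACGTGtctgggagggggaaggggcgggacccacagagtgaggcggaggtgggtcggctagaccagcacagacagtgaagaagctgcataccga
Per1: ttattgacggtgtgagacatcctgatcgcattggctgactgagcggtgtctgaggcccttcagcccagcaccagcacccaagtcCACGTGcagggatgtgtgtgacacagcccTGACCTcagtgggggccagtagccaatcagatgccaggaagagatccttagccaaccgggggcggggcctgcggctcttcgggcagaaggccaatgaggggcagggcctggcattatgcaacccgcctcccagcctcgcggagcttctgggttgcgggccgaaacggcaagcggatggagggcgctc
Cry1: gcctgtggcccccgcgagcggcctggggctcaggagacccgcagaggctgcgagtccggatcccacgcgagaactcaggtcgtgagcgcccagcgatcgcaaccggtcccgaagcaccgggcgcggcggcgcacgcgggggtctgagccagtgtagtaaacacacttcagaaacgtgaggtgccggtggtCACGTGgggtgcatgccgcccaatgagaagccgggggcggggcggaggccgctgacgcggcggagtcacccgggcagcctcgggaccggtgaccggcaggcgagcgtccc
Arntl: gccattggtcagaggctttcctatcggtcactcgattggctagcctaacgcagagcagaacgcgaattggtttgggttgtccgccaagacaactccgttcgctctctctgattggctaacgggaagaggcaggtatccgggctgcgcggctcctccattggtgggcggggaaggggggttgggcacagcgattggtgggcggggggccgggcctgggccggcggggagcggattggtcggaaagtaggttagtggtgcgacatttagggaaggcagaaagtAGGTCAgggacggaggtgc

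Per kilobase of gene, the clock genes kept nearly one order of level in all 3 groups. On the FPKM scale (the authors' length-scaled values), Per1 was the highest at 30.1 ± 3.07 in cKO, 25.8 ± 0.816 in Hetero and 36.3 ± 9.09 in Loxp (SD, n = 4, 2 and 4). Nr1d1 followed at 28.8 FPKM in cKO, 24.8 in Hetero and 28.4 in Loxp, then Dbp at 17.3, 14.3 and 17.7 FPKM, and Npas2 at 8.92, 8.67 and 9.42 FPKM in the same groups. Arntl was the lowest at 3.76 ± 0.0614 FPKM in cKO, 4.11 ± 0.111 in Hetero and 3.89 ± 0.164 in Loxp. Among the Loxp libraries the ranges of neighbours in the order did not overlap between Nr1d1 and Dbp, between Dbp and Npas2, and between Per3 and Arntl. They did overlap between Per1 and Nr1d1 and between each pair of neighbours from Npas2 through Per2, Ciart, Clock and Cry1 to Per3, whose Loxp means were 9.42, 8.98, 8.22, 6.07, 5.91 and 5.84 FPKM. Npas2 stood above its relative Clock in each library. Dbp shares 18% of its exonic bases with Sphk2 and Nr1d1 shares 8.55% with Thra, both on the opposite strand, and Arntl shares 0.439% with the antisense gene Gm45355. Whether counting used strand is not given in the sources used here, so reads of these genes and their partners cannot be told apart there. Sphk2 averaged 37.9 ± 6.20 CPM in cKO, 37.7 ± 0.0130 in Hetero and 37.5 ± 1.84 in Loxp, and Thra 887 ± 188, 848 ± 18.7 and 793 ± 57.4 CPM in the same groups (SD, n = 4, 2 and 4).

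**Figure D1:**
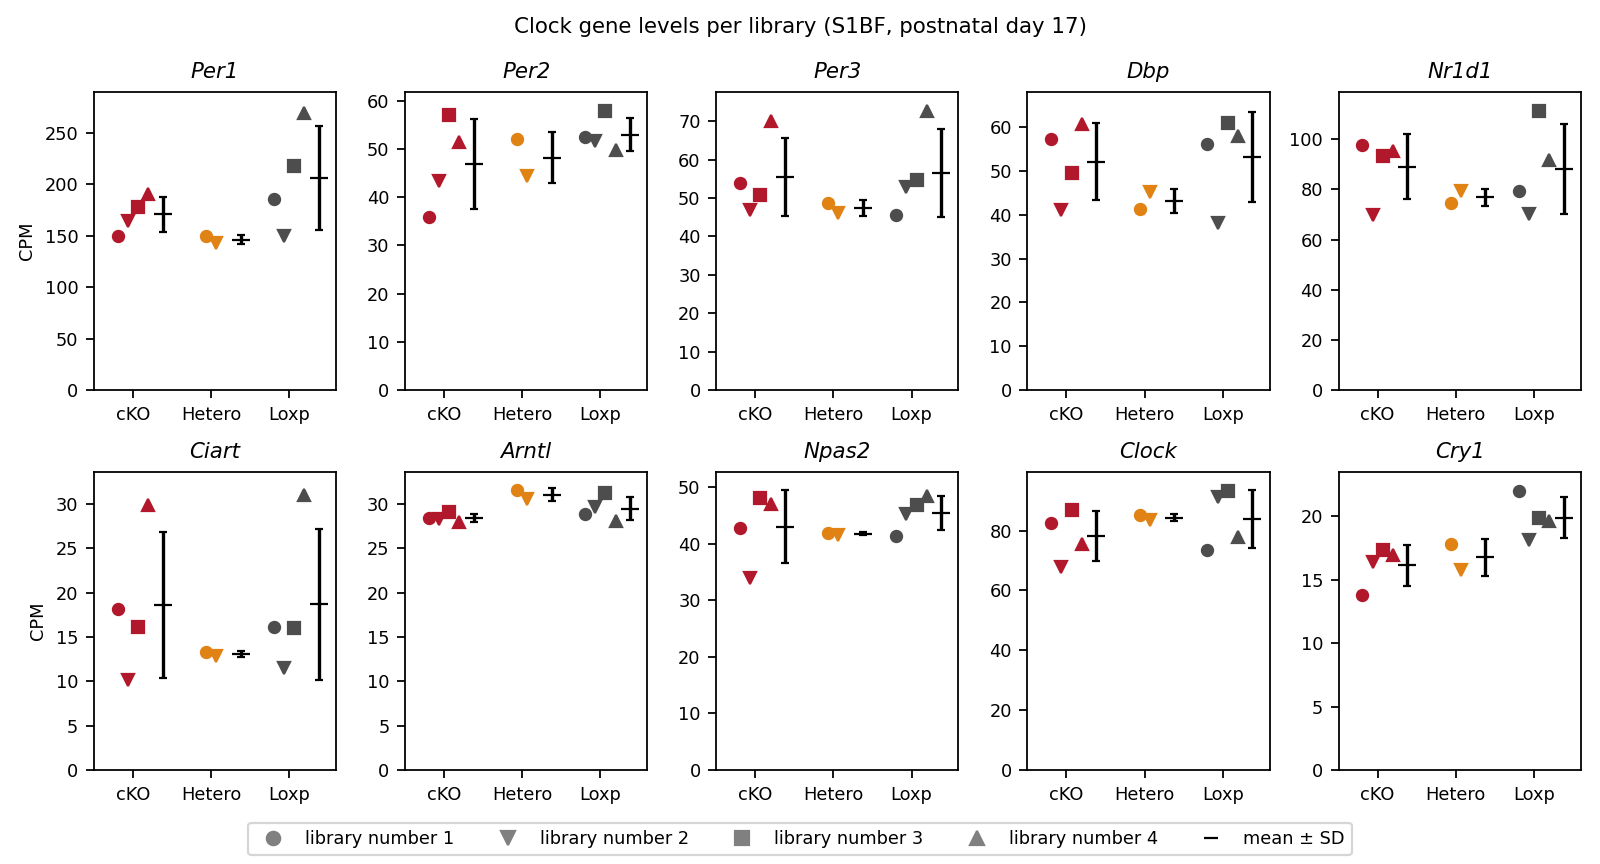
CPM of the 10 clock genes (y axis from 0, 1 panel a gene) in each library of cKO, Hetero and Loxp (x axis), with marker shapes for the library number and the mean ± SD beside the points. Ciart lies at 29.8 CPM in cKO 4 and 31.0 CPM in Loxp 4, above the other libraries, while Arntl lies between 28.0 and 31.6 CPM in all 10.

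The clock genes differed widely in how much they varied between libraries of one genotype. Ciart, which encodes a repressor of CLOCK and BMAL1 (also called CHRONO), was at 18.1, 10.1, 16.2 and 29.8 CPM in cKO, 13.3 and 12.8 CPM in Hetero, and 16.2, 11.5, 16.0 and 31.0 CPM in Loxp. It was high in cKO 4 and Loxp 4, lowest in cKO 2, and the 3 groups overlapped. Ranked by Ciart level, the cKO and the Loxp libraries came in the same order of library number, with Loxp 1 and Loxp 3 nearly tied. The labels do not say what that number marks. The SD of the log2 CPM of Ciart between libraries of a group was 0.570, and it includes such differences between library numbers. It was larger than that of 99.3% of the 10702 tested genes with a mean log2 CPM over 3, for which the median was 0.140. Counting error alone gives an SD of 0.0770 at the depth of Ciart. Arntl lay at the other end. It was at 28.4, 28.3, 29.1 and 28.0 CPM in cKO, 31.6 and 30.5 CPM in Hetero, and 28.9, 29.7, 31.3 and 28.1 CPM in Loxp, with an SD of 0.0473, smaller than that of all but 0.701% of these genes and no larger than the 0.0555 of counting error. The other 5 genes of the Ciart arm had SDs of 0.210 (Per2) to 0.263 (Dbp), each above that of at least 80.6% of genes. Cry1, Clock and Npas2 had SDs of 0.132, 0.151 and 0.163, near the median. The highest library was 3.05 times the lowest for Ciart and 1.13 times for Arntl.

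**Figure D2:**
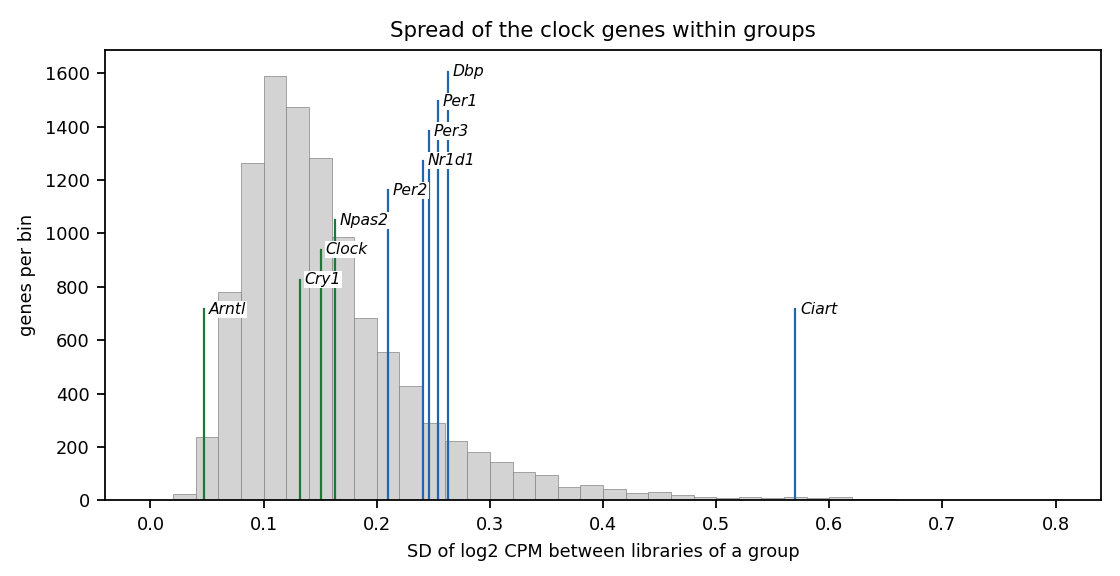
Histogram of the SD of log2 CPM between libraries of a group (x axis) over 10702 genes (y axis, genes per bin), with the clock genes as lines, blue for the Per, Dbp, Nr1d1 and Ciart arm and green for the other; line heights only separate the names. Ciart stands at 0.570 and Arntl at 0.0473, on either side of the bulk.

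The level of each arm was read per library as the mean of log2 CPM after each gene was centred on its mean over the 10 libraries. The Per, Dbp, Nr1d1 and Ciart arm stood at −0.024, −0.29, 0.040 and 0.31 in cKO, −0.18 and −0.21 in Hetero and −0.0031, −0.23, 0.20 and 0.38 in Loxp on this log2 scale. All 6 of its genes lay above their own mean in cKO 4 and Loxp 4, and 0 of 6 did so in cKO 2 and Hetero 2. The Arntl, Npas2, Clock and Cry1 arm stood at −0.10, −0.19, 0.051 and −0.030 in cKO, 0.033 and −0.033 in Hetero and 0.018, 0.071, 0.14 and 0.045 in Loxp, a narrower range. In cKO 2 both arms were low, with 0 of 4 genes of this arm above their mean, while in Loxp 2 the Per arm was low and 4 of 4 genes of the other arm lay above their mean. The first arm minus the second was 0.077, −0.094, −0.011 and 0.34 in cKO, −0.21 and −0.18 in Hetero and −0.021, −0.30, 0.060 and 0.34 in Loxp. It was largest in cKO 4 and Loxp 4 and lowest in Loxp 2. The mean of this difference was 0.078 ± 0.19 in cKO, −0.20 ± 0.023 in Hetero and 0.020 ± 0.26 in Loxp (SD, n = 4, 2 and 4), and both Hetero libraries lay within the Loxp range. As the members were chosen with results known, the arms are a description with no test.

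**Figure D3:**
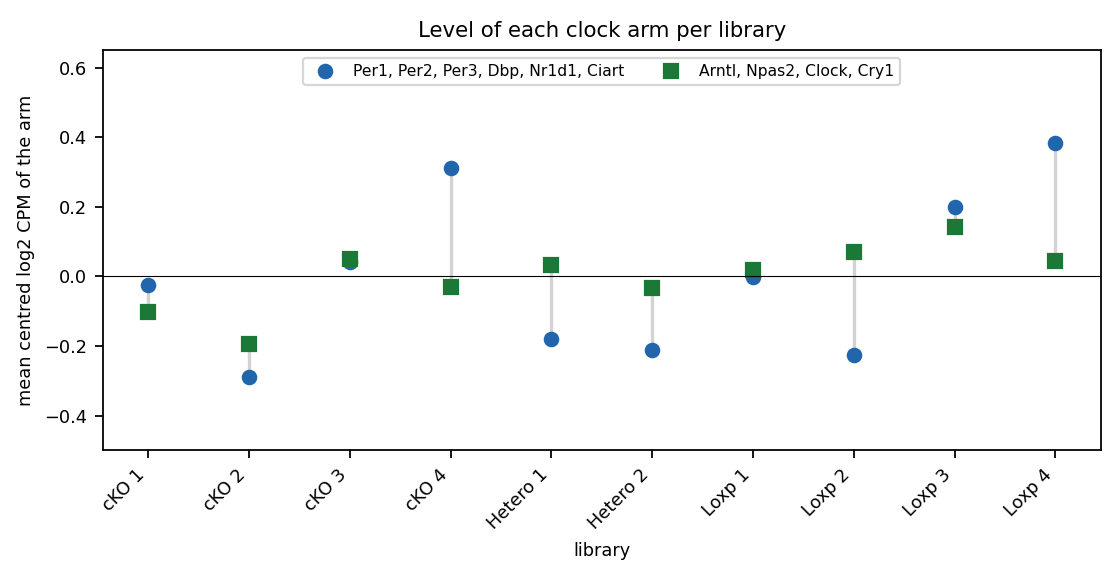
Mean centred log2 CPM (y axis) of the 2 clock arms in each library (x axis), as circles for Per1, Per2, Per3, Dbp, Nr1d1 and Ciart and squares for Arntl, Npas2, Clock and Cry1, joined by a line. The circles range from −0.29 in cKO 2 to 0.38 in Loxp 4 and the squares from −0.19 in cKO 2 to 0.14 in Loxp 3.

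Other transcripts differed between the libraries as well, and not all of them followed the Per arm. The summed level of 5 interneuron genes was 534 CPM in cKO 2 and 587 CPM in Loxp 2, against 678 to 839 CPM in the others. The sum of 6 astrocyte genes was 1343 CPM in cKO 2 and 1152 CPM in Loxp 2, against 965 to 1044 CPM in the others, and that of 4 endothelial genes was 240.4 and 242 CPM against 158 to 198 CPM. The Hetero libraries, also low in the Per arm, were at 678 and 724 CPM for the interneuron genes. That is above cKO 2 and Loxp 2 and below the remaining libraries, at 750 to 839 CPM. For the astrocyte genes Hetero 1 and Hetero 2 were at 990 and 965 CPM, the second being the lowest of all libraries. For the endothelial genes they lay among the others, at 186 and 188 CPM. The 6 oligodendrocyte genes summed to 8527, 5955, 8308 and 9827 CPM in cKO, 9325 and 6408 CPM in Hetero, and 8462, 8392, 9614 and 10572.5 CPM in Loxp. The sum of 4 red cell genes was 21.0 CPM in cKO 4, 21.7 and 36.3 CPM in Hetero, 2.91 CPM in Loxp 4, and 99.8 to 207 CPM in the others. The 8 excitatory neuron genes summed to 6179.6 to 6737 CPM in cKO, 5966 and 6372 CPM in Hetero, and 5480.0 to 6612 CPM in Loxp. The part of these differences in the clock values was not tested, and in whole tissue fewer cells of a type and less RNA per cell cannot be told apart.

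The comparison of cKO with Loxp sets mice with Cre, labelled as lacking Rxra in its cells, beside mice with the loxP allele alone. edgeR's quasi-likelihood test over all 10 libraries called 0 of 18455 genes (0%) at an adjusted p under 0.05, and 0 of the 10 clock genes; 466 genes had an unadjusted p under 0.05, DESeq2 called 2 genes and limma-voom 0, none of them a clock gene. The fitted log2 fold change lay below 0 for 9 of the 10 clock genes, where 49.9% of all genes lay below 0, with a median of −0.067 against 0.00033 over all genes. That count rested in part on single libraries: it was 5 of 10 without cKO 2 and 6 of 10 without Loxp 4. In the Per arm it was 5 of 6 with all libraries, and 2 of 6 without cKO 2 or without Loxp 4.

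Cry1, the repressor that closes the loop with the PER proteins, was the clock gene with the smallest p. It was at 13.8, 16.4, 17.4 and 16.9 CPM in cKO, 17.8 and 15.7 CPM in Hetero, and 22.0, 18.1, 19.9 and 19.6 CPM in Loxp. Each cKO library lay below each Loxp library, and Hetero lay below Loxp as well. It averaged 16.1 ± 1.62 CPM in cKO and 19.9 ± 1.58 CPM in Loxp (SD, n = 4 each), a log2 fold change of −0.30 (SE 0.104), with an unadjusted p of 0.0117 in edgeR and an adjusted p of 0.9998. An exact two-sided permutation test of its log2 CPM gave p = 0.0286, the smallest that 4 against 4 libraries allow, before any correction for the 10 clock genes examined. The groups did not overlap for 1 of the 10 clock genes, Cry1, against 1.54% of all genes, and 1 of 10, again Cry1, had an unadjusted p under 0.05, against 2.53% of all genes. Without each of the 8 libraries in turn the log2 fold change of Cry1 stayed between −0.34 (without Loxp 2) and −0.23 (without cKO 1).

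Per1 was at 150.0, 164, 178 and 190.2 CPM in cKO, 149 and 143 CPM in Hetero, and 186, 150.0, 218 and 269.7 CPM in Loxp. All 4 cKO libraries lay below the Loxp mean and within the Loxp range, since Loxp 2 was as low as cKO 1 and Loxp 4 was the highest of all. Per1 had a log2 fold change of −0.27 (SE 0.144), with an unadjusted p of 0.0811 and an adjusted p of 0.9998 in edgeR, and it stood at −0.11 without the library labelled Loxp 4. Per2, whose protein works with CRY1 as the core repressor, was at 35.8, 43.4, 57.0 and 51.5 CPM in cKO, 52.0 and 44.4 CPM in Hetero, and 52.5, 51.7, 57.8 and 49.8 CPM in Loxp. It was lowest in cKO 1, and the log2 fold change was −0.18 (SE 0.124), or −0.065 without cKO 1 and −0.28 without cKO 3. Per3, the least central of the 3 Per genes for keeping the rhythm, was at 53.9, 47.0, 50.7 and 69.98 CPM in cKO, 48.8 and 46.0 CPM in Hetero, and 45.7, 52.9, 54.7 and 72.6 CPM in Loxp. It was highest in cKO 4 and Loxp 4, with a log2 fold change of −0.028 (SE 0.143) whose sign turned without Loxp 4 (0.12), cKO 2 (0.046) or cKO 3 (0.017).

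Means of Dbp, Nr1d1 and Ciart were close in cKO and Loxp. Dbp, which encodes a transcription factor that passes the rhythm on to D-box genes, was at 57.3, 41.1, 49.4 and 60.8 CPM in cKO, 41.2 and 45.1 CPM in Hetero, and 56.2, 38.1, 60.9 and 57.9 CPM in Loxp. It was low in cKO 2, Loxp 2 and both Hetero libraries, and averaged 52.2 ± 8.75 CPM in cKO and 53.3 ± 10.3 CPM in Loxp (SD, n = 4 each). Nr1d1 was at 97.9, 69.9, 93.3 and 95.2 CPM in cKO, 74.4 and 79.2 CPM in Hetero, and 79.2, 70.04, 111 and 91.8 CPM in Loxp. It was low in cKO 2 and Loxp 2 too, and averaged 89.1 ± 12.9 CPM in cKO and 88.1 ± 17.8 CPM in Loxp. Log2 fold changes were −0.031 (SE 0.146) for Dbp, 0.016 (SE 0.137) for Nr1d1 and −0.012 (SE 0.307) for Ciart, each with an adjusted p of 0.9998 in edgeR. An interval of 2 SE on either side spanned −0.32 to 0.26 for Dbp, −0.26 to 0.29 for Nr1d1 and −0.63 to 0.60 for Ciart. Each of these 3 values changed sign without some single library, Ciart between −0.34 (without cKO 4) and 0.36 (without Loxp 4).

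None of the 3 activators passed the test in cKO against Loxp. Clock, the DNA-binding partner of BMAL1, was at 82.6, 67.8, 86.8 and 75.5 CPM in cKO, 85.1 and 83.4 CPM in Hetero, and 73.4, 91.2, 93.1 and 77.9 CPM in Loxp. It was lowest in cKO 2, the groups overlapped, and the log2 fold change was −0.10 (SE 0.0985), or −0.16 without Loxp 1, −0.060 without Loxp 2, −0.048 without Loxp 3 and −0.036 without cKO 2. Npas2, which can take the place of CLOCK in forebrain neurons, was at 42.8, 33.9, 48.1 and 47.1 CPM in cKO, 41.9 and 41.6 CPM in Hetero, and 41.3, 45.3, 46.8 and 48.3 CPM in Loxp. It too was lowest in cKO 2, and its log2 fold change of −0.081 (SE 0.104) became 0.020 without that library. Arntl had a log2 fold change of −0.053 (SE 0.0722), with all 4 cKO libraries below the Loxp mean and 2 SE on either side spanning −0.20 to 0.092, and was at −0.023 without Loxp 3. The adjusted p was 0.9998 for each of the 3 in edgeR.

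**Figure D4:**
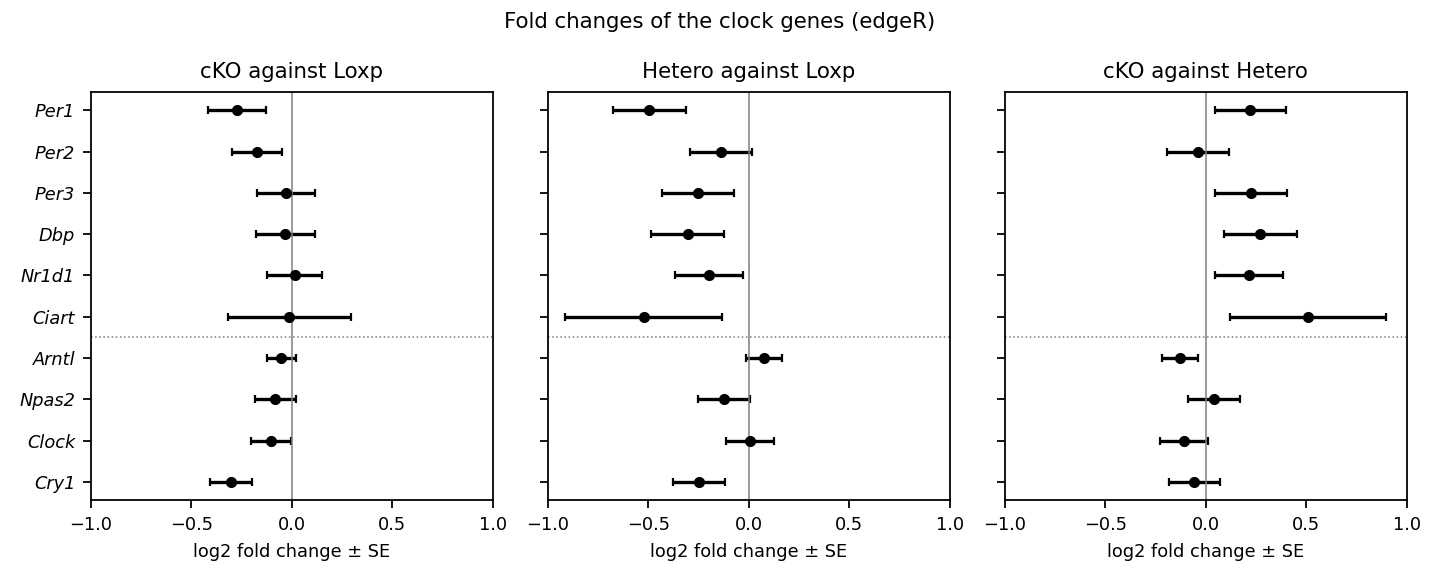
Log2 fold change ± SE from edgeR (x axis) of the 10 clock genes (y axis) in the 3 pairs of groups. The dotted line separates the 2 arms, and the 6 upper genes lie left of 0 in Hetero against Loxp, from −0.52 (Ciart) to −0.14 (Per2).

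Hetero against Loxp set the heterozygous deletion beside the same 4 Loxp libraries, so it is not independent of the comparison above. edgeR called 0 of 18455 genes (0%) and 0 clock genes; 468 genes had an unadjusted p under 0.05, DESeq2 called 17 genes and limma-voom 0, none of them a clock gene. The log2 fold change lay below 0 for 8 of the 10 clock genes, where 51.8% of all genes did, with a median of −0.22 against −0.0068 over all genes. All 6 genes of the Per arm lay below 0, with a median of −0.28, and they did so without each of the 6 libraries in turn. In the Arntl arm 2 of 4 did, with a median of −0.058. Hetero holds only library numbers 1 and 2. Within Loxp, the Per arm stood highest in numbers 3 and 4, at 0.20 and 0.38 on the centred log2 scale. With the number as a block, given in the last section, all 6 values of the Per arm stayed below 0 but were nearer to it. Per1 averaged 146 ± 4.30 CPM in Hetero (n = 2) and 206 ± 50.8 CPM in Loxp (SD, n = 4), a log2 fold change of −0.49 (SE 0.180) with an unadjusted p of 0.0164 and an adjusted p of 0.9998 in edgeR. An exact two-sided permutation test of Per1 gave p = 0.20. The Hetero and Loxp ranges did not overlap for Per1, by a margin of 149.3 CPM in Hetero 1 against 150.0 CPM in Loxp 2, and without Loxp 4 the log2 fold change was −0.33. Per1 was 1 of 10 clock genes with an unadjusted p under 0.05, against 2.54% of all genes, and Per1 and Cry1 were the 2 of 10 without overlap between the groups, against 11.4% of all genes.

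The other genes of the Per arm in Hetero had log2 fold changes of −0.30 (SE 0.182) for Dbp, −0.25 (SE 0.178) for Per3, −0.20 (SE 0.169) for Nr1d1, −0.52 (SE 0.390) for Ciart and −0.14 (SE 0.153) for Per2, all with overlap between the groups and an adjusted p of 0.9998 in edgeR. The 2 Hetero libraries were at 13.3 and 12.8 CPM for Ciart and farther apart for Per2, at 52.0 and 44.4 CPM. Per2 in Hetero against Loxp was at −0.25 without Hetero 1, −0.089 without Loxp 3 and −0.025 without Hetero 2. The Hetero level of the Per arm, −0.18 and −0.21, lay beside −0.29 in cKO 2 and −0.23 in Loxp 2, against 0.38 in Loxp 4. Without Loxp 4, the value of Ciart was −0.15 and that of Per3 −0.099. Without Loxp 3, Nr1d1 stood at −0.064. Cry1 averaged 16.8 ± 1.44 CPM in Hetero (SD, n = 2), a log2 fold change of −0.25 (SE 0.129), which was −0.34 without Hetero 1 and −0.16 without Hetero 2. For Cry1 the exact permutation test, two-sided, gave p = 0.0667, the smallest that 4 against 2 libraries allow. Arntl was at 0.075 (SE 0.0884), Npas2 at −0.12 (SE 0.129) and Clock at 0.0059 (SE 0.121).

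Between cKO and Hetero, which both carried Nex-cre, edgeR called 0 of 18455 genes (0%) and 0 clock genes, with 321 genes at an unadjusted p under 0.05; DESeq2 called 3 and limma-voom 0. The log2 fold change lay below 0 for 4 of 10 clock genes, where 47.5% of all genes did, and 0 of 10 had an unadjusted p under 0.05, against 1.74% of all genes. In the Per arm, 5 of 6 genes lay above 0, from 0.21 (SE 0.170) for Nr1d1 and 0.22 (SE 0.178) for Per1 to 0.51 (SE 0.390) for Ciart. Per1 was higher in each cKO library than in either Hetero library, with a lowest cKO value of 150.0 CPM and a highest Hetero value of 149 CPM. Arntl was lower in each cKO library than in either Hetero library, at a log2 fold change of −0.13 (SE 0.0882), with an exact two-sided permutation p = 0.0667. The 2 genes without overlap compare with 9.43% of all genes. Per3 was at 0.23 (SE 0.178) and Dbp at 0.27 (SE 0.181), and the exception in this arm was Per2 at −0.038 (SE 0.153). Npas2 was at 0.042 (SE 0.128), Clock at −0.11 (SE 0.120) and Cry1 at −0.056 (SE 0.128), with overlap between the groups. Without cKO 4 the value of Ciart was 0.18 and that of Per3 0.090, and the count of clock genes below 0 was 2 of 10 without Hetero 1 or without cKO 1. This contrast is the difference between the responses of cKO and Hetero to Loxp, and no clock gene passed it.

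Of 26 other clock genes in a fixed list, 25 were tested and Prok2 was too weakly counted. In cKO against Loxp the log2 fold change lay below 0 for 21 of 25, where 49.9% of all genes did, and edgeR called 0. The median was −0.057, against 0.00033 over all genes. This count was not refitted without single libraries, and the mean centred log2 level of the list was lowest in cKO 2, at −0.17. Nfil3, which encodes a repressor that competes with DBP at D-boxes, was at 9.62, 11.2, 10.9 and 10.7 CPM in cKO, 11.3 and 8.32 CPM in Hetero, and 14.4, 11.5, 13.4 and 15.4 CPM in Loxp. Each cKO and Hetero library lay below each Loxp library for Nfil3, with log2 fold changes of −0.36 (SE 0.128) in cKO and −0.48 (SE 0.161) in Hetero. In edgeR its unadjusted p was 0.0136 in cKO and 0.0100 in Hetero, and its adjusted p was 0.9998 in both. In cKO against Loxp, Nfil3 was the 1 of the 25 without overlap between the groups, against 1.54% of all genes. In Hetero against Loxp there were 5 of 25 (Nfil3, Bhlhe40, Tef, Ppp1cc and Nr1d2, the last named for this count after its values were seen), against 11.4% of all genes. Bhlhe40, a repressor at E-boxes, was at 79.4, 62.1, 116 and 85.1 CPM in cKO, 72.1 and 80.1 CPM in Hetero, and 111, 82.5, 128 and 116 CPM in Loxp. Its log2 fold change was −0.35 (SE 0.167) in cKO, where the groups overlapped, and −0.52 (SE 0.209) in Hetero. Ppp1cc, a phosphatase subunit, was at −0.16 (SE 0.0783) in cKO and −0.17 (SE 0.0967) in Hetero, and Csnk2a1, a kinase subunit, at −0.14 (SE 0.0793) in cKO. In Hetero against Loxp 18 of 25 lay below 0 (median −0.076), where 51.8% of all genes did. Tef, a relative of Dbp, was at −0.17 (SE 0.102) there. In cKO against Hetero 9 of 25 lay below 0 (median 0.054), where 47.5% of all genes did. The smallest p there was for Tef at 0.18 (SE 0.102), then Btrc at −0.13 (SE 0.106), Usp2 at 0.12 (SE 0.136) and Nampt at −0.082 (SE 0.0944). Btrc encodes a ubiquitin ligase subunit that marks PER proteins for breakdown. edgeR called 0 of the 25 in these 2 comparisons as well; an unadjusted p under 0.05 was found for 1 of 25 in cKO against Loxp, 2 in Hetero against Loxp and 0 in cKO against Hetero, where the shares of all genes were 2.53%, 2.54% and 1.74%.

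Immediate early genes were read beside Per1, which belongs to the same class. The level of 12 such genes, among them Fos, Egr2 and Arc, was −0.22, −0.14, −0.25 and 0.18 in cKO, −0.44 and −0.64 in Hetero and 0.40, −0.10, 0.29 and 0.91 in Loxp on the centred log2 scale. The highest Per1 value and the highest immediate early level were both in the library labelled Loxp 4, and the lowest of both in Hetero 2. Fos was at 35.2, 44.0, 47.1 and 54.5 CPM in cKO, 30.7 and 31.6 CPM in Hetero, and 61.7, 48.7, 72.1 and 86.9 CPM in Loxp, with log2 fold changes of −0.58 (SE 0.160) in cKO against Loxp and −1.11 (SE 0.207) in Hetero against Loxp. The log2 fold change of all 12 lay below 0 in both comparisons with Loxp, with medians of −0.46 in cKO and −0.97 in Hetero, and all 12 lay above 0 in cKO against Hetero (median 0.44). Of all genes, 49.9% lay below 0 in cKO against Loxp, 51.8% in Hetero against Loxp and 47.5% in cKO against Hetero. Gene by gene, the log2 fold changes in cKO against Loxp were −1.003 for Egr2, −0.91 for Arc, −0.66 for Nr4a1, −0.62 for Ier2, −0.58 for Fos, −0.47 for Junb, −0.45 for Btg2, −0.43 for Egr1, −0.41 for Dusp1, −0.36 for Fosb, −0.23 for Egr4 and −0.088 for Npas4. In Hetero against Loxp they were −1.57 for Btg2, −1.40 for Egr2, −1.37 for Arc, −1.11 for Fos, −1.04 for Nr4a1, −1.02 for Dusp1, −0.91 for Fosb, −0.91 for Ier2, −0.88 for Junb, −0.58 for Egr1, −0.57 for Npas4 and −0.40 for Egr4. edgeR called 0 of the 12 in each comparison at an adjusted p under 0.05, while 6 of 12 in cKO against Loxp, 10 of 12 in Hetero against Loxp and 2 of 12 in cKO against Hetero had an unadjusted p under 0.05, where the shares of all genes were 2.53%, 2.54% and 1.74%. Over the libraries Per1 was mostly higher where the immediate early level was higher, and the Hetero libraries were the lowest in both. Neither Per1 nor Ciart followed the order of this level throughout, in part among libraries of like level. Per1 was at 178 CPM in cKO 3 (level −0.25), above 150.0 and 164 CPM in cKO 1 and cKO 2 (−0.22 and −0.14). It was at 186 CPM in Loxp 1 (0.40), below 218 CPM in Loxp 3 (0.29). Ciart was at 16.2 and 16.0 CPM in Loxp 1 and Loxp 3, and at 29.8 CPM in cKO 4, where the immediate early level was 0.18. The level of 12 glucocorticoid-responsive genes, among them Fkbp5, Tsc22d3 and Sgk1, was −0.13, −0.34, 0.13 and 0.43 in cKO, −0.19 and −0.068 in Hetero and 0.16, −0.12, −0.15 and 0.27 in Loxp. It was highest in cKO 4, then Loxp 4, and lowest in cKO 2, where Ciart was lowest too. Loxp 2 and Loxp 3 were close in this level, at −0.12 and −0.15, while Ciart was at 11.5 CPM in Loxp 2 and 16.0 CPM in Loxp 3. The Per arm stood at −0.23 in Loxp 2 and 0.20 in Loxp 3. Of the 12 glucocorticoid-responsive genes, 7 had a log2 fold change below 0 in cKO against Loxp (median −0.020). There were 11 in Hetero against Loxp (median −0.20) and 3 in cKO against Hetero (median 0.13), with 0 called by edgeR. The part of either list in the clock values was not tested.

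**Figure D5:**
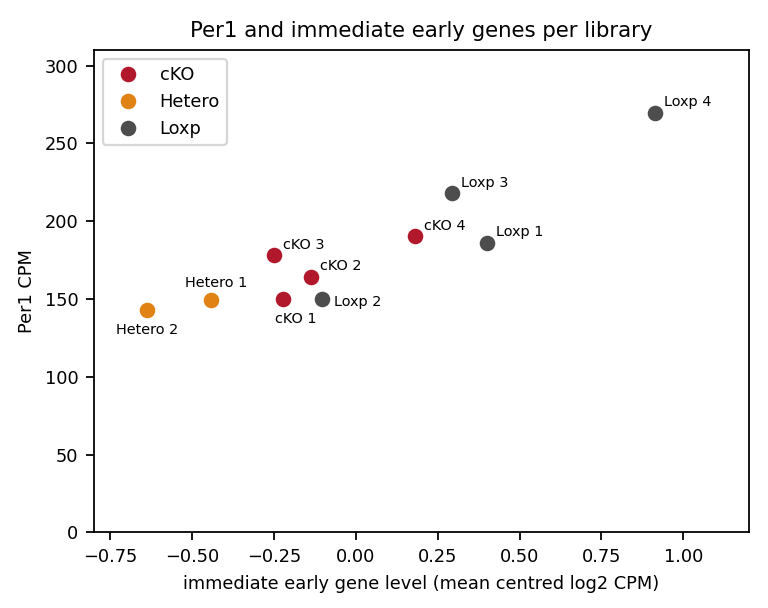
Per1 CPM (y axis, from 0) against the level of 12 immediate early genes (x axis, mean centred log2 CPM) in the 10 libraries, coloured by group. Hetero 2 lies lowest on both axes and Loxp 4 highest on both.

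The genes whose log2 CPM was most like the level of the Per arm over the 10 libraries were sought among 10200 named genes with a mean log2 CPM over 3. Among those with the highest Pearson correlation were Sec14l1 (r = 0.949, rho = 0.976), Kcnab2 (r = 0.946, rho = 0.976), Jph3 (r = 0.935, rho = 0.830) and Atg13 (r = 0.932, rho = 0.891). Kcnab2 encodes a subunit of voltage-gated potassium channels and Atg13 a protein that starts autophagy. Those with the most negative correlation were Fam118a (r = −0.959, rho = −0.927), Pold3 (r = −0.955, rho = −0.891), Steap3 (r = −0.954, rho = −0.903), Cd24a (r = −0.947, rho = −0.927) and Slc40a1 (r = −0.930, rho = −0.964), of which Slc40a1 encodes the iron exporter ferroportin. For the difference of the arms the highest were Inpp5j (r = 0.915, rho = 0.842), Lmo7 (r = 0.911, rho = 0.830), Ttc30b (r = 0.908, rho = 0.903), Ypel4 (r = 0.903, rho = 0.782) and Frat1 (r = 0.902, rho = 0.818), and the most negative were Uck2 (r = −0.926, rho = −0.915), Mcu (r = −0.922, rho = −0.879), Wwc1 (r = −0.921, rho = −0.794), Cd24a (r = −0.917, rho = −0.903) and Arl5a (r = −0.913, rho = −0.952). Mcu encodes the calcium uniporter of mitochondria, and Cd24a, a surface glycoprotein, was on both lists at 9.66 to 28.1 CPM. These are the extremes of many genes over 10 libraries that differ in depth and tissue makeup, and they are given as a description.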

How the data were processed

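Whole-tissue RNA of 10 S1BF samples was sequenced; RNA was extracted with Trizol and libraries made with the NEBNext Ultra RNA kit, per the labels. The submitters' processing notes name featureCounts 1.5.0-p3 and the build mm10. The deposited table holds whole-number counts for every gene and library, not normalized by the authors. No aligner or annotation is given in the sources used here. The FPKM values were deposited by the authors and served only to compare levels between genes. Their test columns were not used.

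Counts were tested with edgeR 4.0.16 in R 4.3.3 (TMM, filterByExpr, glmQLFit, glmQLFTest, a mean per group, all 10 libraries), with Benjamini-Hochberg adjusted p under 0.05 over all 18455 tested genes, after a check on simulated counts. Log2 CPM used a prior count of 2. DESeq2 1.42.0 and limma-voom (limma 3.58.1) were alternatives. Over 45 pairs of libraries, the chi-square per gene was 4.89 to 40.8, so none was a duplicate. Gene positions came from GENCODE M21 (GRCm38).

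The clock genes and the other lists were chosen with earlier results of these data known. All 10 clock genes are named, with up to 4 other clock genes by smallest p in each comparison and the 5 most and least correlated genes for each arm measure, leaving out gene models without a proper name; 1 gene that this rule names is not reported here.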

Additional observations from a re-analysis of the deposited data

Results flagged for a closer look

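Of 26 sets of 4 libraries examined (the 10 clock genes and 3 arm measures in cKO and in Loxp), 1 held a library far from the others, where chance alone gives about 5% of such sets. Nr1d1 was at 69.9 CPM in cKO 2, against 93.3 to 97.9 CPM in the other 3 cKO libraries. Loxp 2 lay at a like level, 70.04 CPM, and the other Loxp libraries lay between 79.2 and 111 CPM. The library cKO 2 was also the one with the highest astrocyte and the lowest interneuron and oligodendrocyte marker sums of the 10, at 1343, 534 and 5955 CPM; the part of this in the value of Nr1d1 was not tested.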

How the results depend on the processing

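No clock gene passed the threshold under any setting tried. Without a low-count filter edgeR called 32 genes in cKO against Loxp, 68 in Hetero against Loxp and 39 in cKO against Hetero; DESeq2 called 2, 17 and 3. The replicate number as a block called 1, 1 and 0 genes, and turned Npas2 in cKO against Hetero to −0.079. In Hetero against Loxp this block gave −0.28 for Per1, −0.013 for Per2, −0.086 for Per3, −0.14 for Dbp, −0.016 for Nr1d1 and −0.064 for Ciart, and the unadjusted p of Per1 in edgeR was 0.0557 with it. In cKO against Hetero the block gave 0.031 for Per1, −0.18 for Per2, 0.062 for Per3, 0.11 for Dbp, 0.045 for Nr1d1 and 0.056 for Ciart. All but Per2 in the last comparison were nearer 0 than without the block, and no sign changed in this arm. In cKO against Loxp the block gave −0.24 (SE 0.0969) for Per1, against −0.27 (SE 0.144) without it. With the block the unadjusted p in edgeR was 0.0268 for Per1 and 0.0173 for Cry1, each with an adjusted p of 0.9998. The SE of Ciart in that comparison was 0.119 with the block, against 0.307 without it. Same-numbered cKO and Loxp libraries deviated together with correlations of 0.095, 0.20, 0.042 and 0.32, each the highest of its cKO library over the 4 Loxp libraries, but 2 were under 0.1 and the labels do not say what the number marks. Leaving out 1 library gave 0 to 1 (1 without cKO 2), 0 to 15 and 0 to 14 (both highest without Hetero 1) genes called in the 3 comparisons. Ranges of log2 fold changes that changed sign that way were, in cKO against Loxp, Per3 −0.16 to 0.12, Dbp −0.16 to 0.070, Nr1d1 −0.079 to 0.15, Ciart −0.34 to 0.36 and Npas2 −0.13 to 0.020; in Hetero against Loxp, Clock −0.053 to 0.062; in cKO against Hetero, Per2 −0.15 to 0.079, Npas2 −0.017 to 0.14 and Cry1 −0.14 to 0.035. The count of clock genes below 0, an alternative added after seeing the data, ranged from 5 to 10 in cKO against Loxp, 8 to 9 in Hetero against Loxp and 2 to 5 in cKO against Hetero, and that of the Per arm from 2 to 6, 6 to 6 and 0 to 1. The arm difference ranged from −0.048 to 0.16, −0.32 to −0.11 and 0.19 to 0.33 in the 3 comparisons. It moved by less than the within-group SD of 0.21 under other scalings, a smaller prior count or without Ciart. With 1 Hetero library left, its spread is taken from the other groups. Ciart, at 235 to 777 counts, and Cry1, at 348 to 505, are the members most exposed to counting error.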
